A study of Mus musculus with 2 samples.

Results

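Mir138-1, Mir138-2, Mir129-1 and Mir129-2 are the 4 mouse genes that encode miR-138 and miR-129, and they were taken by symbol from the 2202 microRNA genes counted in each library. All 4 had at least 10 reads in both libraries, the minimum used here to call a gene detected, as did 389 of the 2202 genes. Small RNA (size range under 30 in the labels, which give no unit) was sequenced from hippocampus, with the tissue given as a layer of it. The mice were adult males of 8 to 10 months with the strain name 5xFAD/CAST. The 5xFAD line is a transgenic model of Alzheimer disease whose transgenes are driven by the neuronal Thy1 promoter, and CAST is a wild-derived strain; the labels do not say which alleles the sampled mice carried. There was 1 group of 2 libraries, numbered as biological replicates 1 and 2, and no control group. The labels give each library its own tissue record but both the same donor record, so p-values measure only the difference between these 2 libraries, which may be technical.

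MicroRNAs are cut from hairpin precursors, and either arm of the hairpin, called 5p or 3p, can be loaded into the Argonaute silencing complex and guide it to messenger RNAs that pair with its seed, bases 2 to 8. miR-138 is a brain-enriched microRNA found at dendrites, known in hippocampal neurons for limiting the growth of dendritic spines by repressing the depalmitoylating enzyme APT1 (Lypla1). miR-129 is known in hippocampal neurons for repressing the potassium channel Kv1.1 (Kcna1) and for its part in the downscaling of synapses under raised activity. Each of these microRNAs has 2 gene copies on different chromosomes.

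Both copies of a pair give the same 5p microRNA, which bears on every count below because a read of the shared arm fits both genes. RefSeq lists different 3p microRNAs for the miR-138 copies, but in the miR-129 pair it lists a 3p arm for Mir129-2 only. The mature arms, with the seed in capitals, are these (RefSeq, build GRCm38.p6):
miR-138-5p: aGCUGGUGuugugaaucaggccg
miR-138-1-3p: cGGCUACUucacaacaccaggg
miR-138-2-3p: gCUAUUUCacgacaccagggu
miR-129-5p: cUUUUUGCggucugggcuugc
miR-129-2-3p: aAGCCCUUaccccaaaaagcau
The 5p arms of 23 and 21 bases were each held whole by 2 hairpins, their own pair, and by no other annotated microRNA gene on the same strand. None of these seeds occurred in another mature mouse microRNA of the RefSeq table, so each 5p arm formed a seed group of its own that both copies share. The 3p arms of miR-138 differed in length and start, so their seeds differed. Counted from the 5′ end of miR-138-1-3p, the 20 bases that overlap carried 2 substitutions, C7U and A13G. In the Mir129-1 hairpin, the stretch that matches miR-129-2-3p was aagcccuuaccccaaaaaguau. It carried 1 substitution over 22 bases, C20U counted from the 5′ end of miR-129-2-3p, which left the seed the same.

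The whole hairpins show how far the identity of the copies reaches. The longest stretch common to both copies of a pair is in capitals:
Mir138-1: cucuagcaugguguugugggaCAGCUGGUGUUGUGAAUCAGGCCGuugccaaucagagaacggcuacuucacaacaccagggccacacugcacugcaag
Mir138-2: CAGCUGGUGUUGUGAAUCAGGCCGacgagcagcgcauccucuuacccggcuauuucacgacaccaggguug
Mir129-1: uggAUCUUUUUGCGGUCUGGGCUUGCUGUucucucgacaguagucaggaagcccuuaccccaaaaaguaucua
Mir129-2: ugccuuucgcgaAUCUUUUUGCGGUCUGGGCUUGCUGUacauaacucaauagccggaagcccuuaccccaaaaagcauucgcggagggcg
The common stretch was 24 bases in the miR-138 pair and ended exactly at the 3′ end of the 5p arm, with 1 common base before the arm, where the annotated Mir138-2 hairpin begins. In the miR-129 pair it was 26 bases, with 2 bases before the 5p arm and 3 after it. A miR-138-5p read with 1 templated base more at its 3′ end could therefore be placed at 1 copy, whereas a miR-129-5p read would need 4 more. Outside the capitals, the miR-129 hairpins also matched along the 3p arm up to the C20U substitution. A miR-129 3p read that ends before that base could therefore fit both genes too. Of all stretches of 20 bases in a hairpin, 5 of 80 in Mir138-1, 5 of 52 in Mir138-2, 9 of 54 in Mir129-1 and 9 of 71 in Mir129-2 also occurred in a microRNA gene at another place. The genes sharing them were the other copy and, for Mir129-1, also Mir129b on the opposite strand. All the other stretches belong to 1 place among annotated microRNA genes. Counts are per hairpin, so the arm a read came from is not given. Reads that fit several places were counted apart, under no gene name. A read that fits both copies equally well would fall there and be missing from both counts. The counter itself is not named in the sources used here. Counts per copy are therefore incomplete and uncertain, for these genes and for the other copied genes named below.

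The copies lie in noncoding transcripts, with coordinates in mm10 and GENCODE M21. Mir138-1 (ENSMUSG00000065414.1, chromosome 9, 122682876 to 122682974, + strand) lies in an exon of the transcribed pseudogene Gm47135. Mir138-2 (ENSMUSG00000065512.3, chromosome 8, 94324311 to 94324381, + strand) lies in an exon of the long noncoding RNA C78859. Mir129-1 (ENSMUSG00000065469.1, chromosome 6, 29022619 to 29022691, + strand) lies in an exon of the long noncoding RNA Gm3294. Mir129-2 (ENSMUSG00000065511.1, chromosome 2, 94241364 to 94241453, − strand) lies in an intron of Mir670hg on the same strand. It also overlaps the whole 65-base hairpin of Mir129b (chromosome 2, 94241378 to 94241442), annotated on the opposite strand.

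Of 9713924 reads in replicate 1, 3421977 (35.2%) had a microRNA gene assigned, and of 8551453 in replicate 2, 2820468 (33.0%). Reads that fit several places made up 41.6% and 38.2% and carry no gene name. Levels are therefore levels among assigned reads, given as CPM (the reads of a gene scaled to a common total of assigned reads), and they leave out every read without a gene name. The tissue label was checked against marker microRNAs. Neuronal markers took 2.87% and 2.72% of assigned reads, led by Mir132, and 6 of the 10 were detected. Mir124a-2 and Mir124a-3 had 0 reads, while Mir124a-1 (5 and 5 reads) and Mir9-2 (7 and 3 reads) fell below the minimum. Striated muscle and liver markers took 0.00514% and 0.00503%, with Mir122 (105 and 101 reads) and Mir206 (69 and 41 reads) detected and Mir1a-1, Mir133a-2 and Mir133b at 0; all of the genes at 0 belong to families with further copies.

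miR-138 was the more abundant pair, and Mir138-1 was the highest of the 4 genes. Mir138-1 received 8757 reads in replicate 1 and 11431 in replicate 2, which is 2559 CPM (exact Clopper-Pearson 95% interval 2506 to 2613) and 4053 CPM (3979 to 4128). Its mean was 3306 ± 1056 CPM (SD, n = 2), and it ranked 51 and 38 among the 389 detected genes. The replicate 2 value was the higher and the intervals, which cover counting error only, did not overlap.

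Mir138-2 received 5571 and 6735 reads, or 1628 CPM (1586 to 1671) and 2388 CPM (2331 to 2446). This gave a mean of 2008 ± 537 CPM (SD, n = 2) and ranks of 67 and 56. Again replicate 2 was higher, with no overlap of the intervals. Both copies lay well above the median of detected genes, which was 105 CPM. Together they took 0.419% of assigned reads in replicate 1 and 0.644% in replicate 2.

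In the miR-129 pair, Mir129-2 held most of the assigned reads. Mir129-2 received 2038 and 2791 reads, or 596 CPM (570 to 622) and 990 CPM (953 to 1027), a mean of 793 ± 279 CPM (SD, n = 2). It ranked 111 and 94. Mir129-1 received 215 and 305 reads, or 62.8 CPM (54.7 to 71.8) and 108 CPM (96.3 to 121), a mean of 85.5 ± 32.0 CPM (SD, n = 2), and ranked 216 and 194, near the median of detected genes. Replicate 2 was the higher library for both genes. The pair took 0.0658% and 0.110% of assigned reads.

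The order Mir138-1, Mir138-2, Mir129-2, Mir129-1 was the same in both libraries. Within a library, Mir138-1 exceeded Mir138-2 by 1.57-fold (counting interval 1.52 to 1.63) in replicate 1 and 1.70-fold (1.65 to 1.75) in replicate 2. Mir138-2 in replicate 2 (2388 CPM) stayed just below Mir138-1 in replicate 1 (2559 CPM), so the ranges of these neighbours over the 2 libraries did not overlap, although the SDs of their means did. Mir138-2 exceeded Mir129-2 by 2.73-fold and 2.41-fold, and Mir129-2 exceeded Mir129-1 by 9.48-fold and 9.15-fold. Mir138-1, the highest gene, stood 40.7-fold and 37.5-fold above Mir129-1, the lowest. Each read comes from 1 small RNA, though several reads may be copies of the same molecule, so CPM was not divided by hairpin length for these values. Per kilobase of hairpin (lengths of 71 to 99 bases) the order held, with Mir138-1 at 33394, Mir138-2 at 28281, Mir129-2 at 8806 and Mir129-1 at 1171 CPM per kilobase. On that scale the lead of Mir138-1 over Mir138-2 narrowed to 1.13-fold and 1.22-fold.

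**Figure D1:**
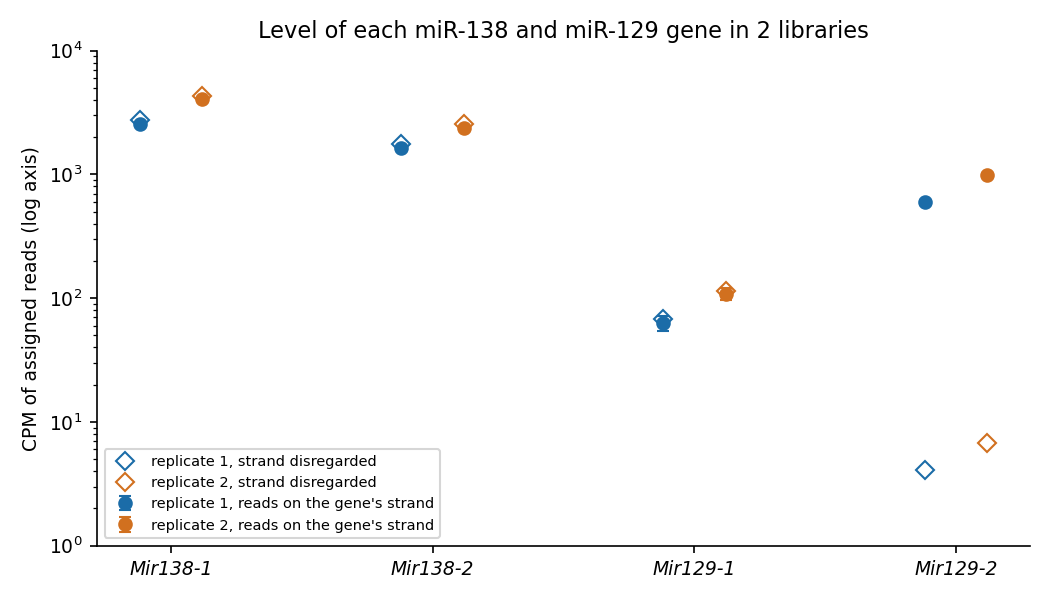
CPM of assigned reads (log axis) for each gene in replicate 1 (blue) and replicate 2 (orange). Filled points are reads on the strand of the gene with exact 95% counting intervals, mostly smaller than the points; open diamonds are the counts that disregard strand. Every filled point is higher in replicate 2, and the diamonds lie slightly above the filled points at the other 3 genes, which had the same reads in a smaller library total, but far below them at Mir129-2, at 4.08 and 6.81 CPM.

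The level of Mir129-2 rested on the strand of its reads, since the antisense hairpin of Mir129b covers the middle of it. Mir129b received 1 read on its own strand in replicate 1 and 0 in replicate 2, where a count of 0 allows up to 1.06 CPM. Its opposite-strand column held 2025 and 2773 reads. Those are the reads that Mir129-2 lost when strand was disregarded, 99.4% of its reads in each library, which left it 13 and 18 reads. A table read without strand would thus rank Mir129-2 below Mir129-1, at 5.44 against 91.4 CPM on average. The other 3 genes overlap no other annotated microRNA gene, and their read counts were identical in both columns.

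The split between copies was examined next, because a ratio within a library does not depend on library size. Mir138-1 held 61.1% (exact 95% interval 60.3 to 61.9) of the reads of its pair in replicate 1 and 62.9% (62.2 to 63.6) in replicate 2. The difference of 1.81 percentage points passed the test of these 2 libraries (Fisher's exact test, two-sided, adjusted p = 0.0021 over 17 pairs; log2 shift of the copy ratio 0.11, 95% interval 0.05 to 0.18). Mir129-1 held 9.54% (8.36 to 10.8) and 9.85% (8.82 to 11) of its pair. That difference of 0.31 percentage points did not pass (adjusted p = 0.79 by the same exact test; log2 shift 0.05, interval -0.22 to 0.32). The interval does not exclude a shift of the size seen in the miR-138 pair.

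Other microRNAs with numbered copies gave a scale for these shifts. Of 52 pairs of genes whose symbols differ only in -1 and -2, both copies were detected in 17. The copy split differed between the libraries in 9 of the 17, or 52.9%, so a called split is no mark of Mir138. The absolute log2 shift of the copy ratio was 0.05 for the miR-129 pair and 0.11 for the miR-138 pair, against a median of 0.35 in the 15 other pairs and a highest value of 2.54, for Mir26a. Ordered from the smallest shift, the miR-129 pair was the third and the miR-138 pair the fourth, between Mir29b and Mir218. Their unevenness lay within the range of other pairs too: the larger copy exceeded the smaller by 1.63-fold for miR-138 and 9.31-fold for miR-129 (geometric means over the libraries), against a median of 2.70 and a range of 1.04 to 81.5 in the others. These are descriptions, and no test sets these 2 pairs apart from the others.

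**Figure D2:**
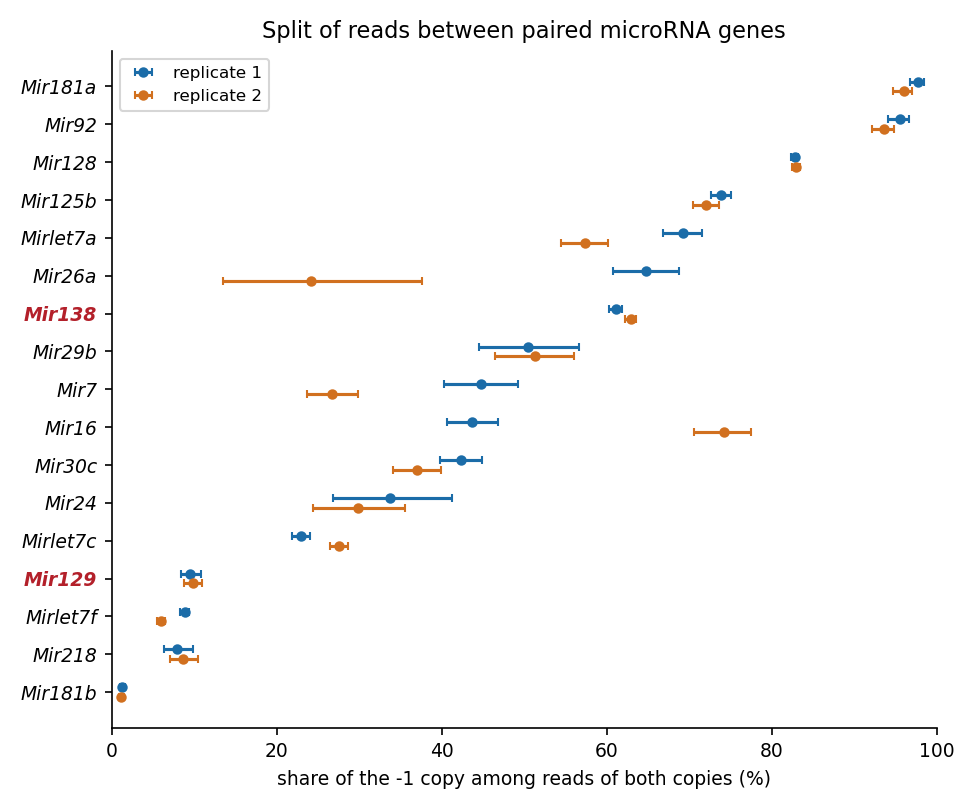
Share of reads held by the copy numbered 1 in each of the 17 pairs with both copies detected, in percent, with exact 95% counting intervals (blue, replicate 1; orange, replicate 2). The points of Mir138 (61.1% and 62.9%) and Mir129 (9.54% and 9.85%) nearly coincide. So do those of other pairs, such as Mir128 (82.8% and 83.0%) and Mir218 (7.97% and 8.59%). Those of Mir26a and Mir16, the pairs furthest apart, lie 40.7 and 30.5 percentage points apart. The Mir26a copies had 13 and 41 reads in replicate 2.

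All 4 genes were higher in replicate 2 than in replicate 1, by less than 2-fold. On TMM-scaled counts, which adjust library sizes to the bulk of genes, the log2 ratio of replicate 2 over replicate 1 was 0.56 (95% counting interval 0.52 to 0.60) for Mir138-1 and 0.45 (0.40 to 0.51) for Mir138-2. It was 0.68 (0.43 to 0.94) for Mir129-1 and 0.63 (0.55 to 0.72) for Mir129-2. These are folds of 1.48, 1.37, 1.61 and 1.55. Each passed the exact binomial test (Benjamini-Hochberg over 389 genes), with adjusted p from 2e-07 for Mir129-1, the gene with fewest reads, to 7e-168 for Mir138-1. The same test called 67.6% of detected genes, 33.9% as higher in replicate 2 and 33.7% as lower, so 4 called genes are unremarkable in number. The test holds counting error alone.

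Measured against the spread of all genes, the 4 differences were ordinary in size. The median absolute log2 ratio of detected genes was 0.52, and the members' ratios exceeded in absolute size 45.8% to 62.5% of the detected genes. With the spread between the 2 libraries as the error, none passed (edgeR exact test, adjusted p = 1 for each; unadjusted exact p from 0.44 to 0.60). That test called 2 of 389 genes, or 0.514%, and 23 had an unadjusted p under 0.05. Its error includes the difference under test, so failing it does not show that the libraries held equal levels.

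**Figure D3:**
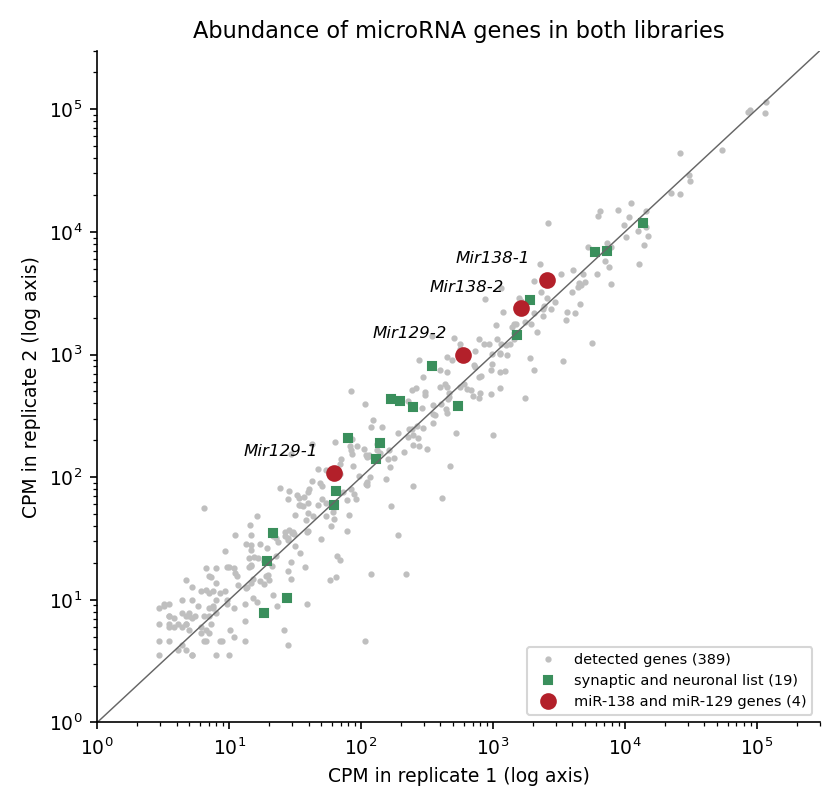
CPM in replicate 1 against CPM in replicate 2 (log axes) for the 389 detected genes (grey), the 19 detected genes of the synaptic and neuronal list (green) and the 4 miR-138 and miR-129 genes (red); the line marks equal CPM. The red points lie above the line and inside the cloud of the other genes.

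The synaptic and neuronal list, 24 other genes known for roles in neurons, did not move in a single direction. Of its 19 detected genes, 9 were higher in replicate 2, 6 were lower and 4 did not pass the exact binomial test, against 132 higher, 131 lower and 126 without a call in all detected genes. Its median log2 ratio was 0.09, against 0.05 over all detected genes. Mir132, an activity-regulated microRNA that shapes dendrites, was the most abundant of the list at 12751 ± 1353 CPM (SD, n = 2) and was lower in replicate 2 (log2 ratio -0.32). Mir128-1, which restrains neuronal excitability, had 7201 ± 219 CPM and a log2 ratio of -0.16. Mir137, a regulator of synaptic vesicle genes, had 6409 ± 598 CPM and a log2 ratio of 0.09. Mir9-1, a copy of a neural progenitor microRNA, was the lowest detected gene at 13.1 ± 7.50 CPM (log2 ratio -1.34). Both members of the miR-138 pair were below these 3 most abundant genes and above Mir128-2 (1489 ± 60.3 CPM), the smaller copy of its own pair. By mean CPM, Mir485 of the list (2361 ± 619 CPM) lay between Mir138-1 and Mir138-2.

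Among neuronal pairs with both copies detected, Mir218 resembled miR-129 in its values. Mir218-1 had 74 and 99 reads and Mir218-2 had 854 and 1054, so the copy numbered 1 held 7.97% and 8.59%. The log2 ratios of its copies were 0.60 and 0.48. In the Mir128 pair the copies also kept their split (82.8% and 83.0%), but both were lower in replicate 2, with log2 ratios of -0.16 and -0.18. The Mir7 pair moved apart, with Mir7-1 at 44.8% and 26.7% of its reads. In all, both copies were higher in replicate 2 by log2 ratio in 5 of the 15 other pairs, both were lower in 4, and the copies went opposite ways in 6.

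**Figure D4:**
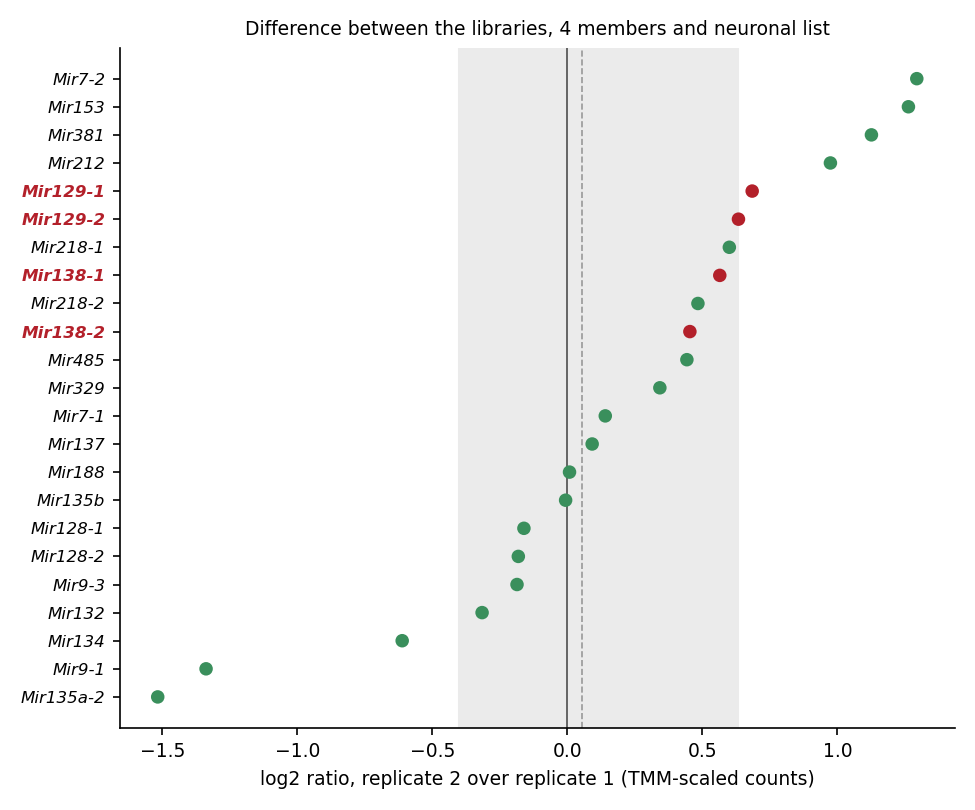
Log2 ratio of replicate 2 over replicate 1 on TMM-scaled counts for the 4 genes (red) and the 19 detected genes of the synaptic and neuronal list (green). The grey band runs from the first to the third quartile of the 389 detected genes, -0.40 to 0.63, the dashed line is their median (0.05) and the solid line is 0; the red points lie close together, from 0.45 to 0.68, while the green points run from -1.52 to 1.29.

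Other measures also differed between the libraries, and their part in the members' ratios was not tested. Unmapped reads were 16.6% in replicate 1 and 22.6% in replicate 2. Over all detected genes, the exact binomial test called 33.7% lower and 33.9% higher in replicate 2, and the counts of markers stand beside these shares. Endothelial and mural markers took 2.17% and 1.32% of assigned reads, with 3 of 3 lower in replicate 2. Choroid plexus and ependyma markers took 0.342% and 0.164% (3 of 5 lower, 1 higher), and microglia and leukocyte markers 0.521% and 0.448% (5 of 6 lower). Oligodendrocyte markers took 0.503% and 0.667%, with Mir338 higher and Mir219a-2 lower. Of the 6 detected neuronal markers 4 were lower and 1 higher. Erythroid markers took 0.00476% and 0.00599%. In the 5 lists named here other than the neuronal one, no gene was at 0 in both libraries. Fewer cells of a type and less microRNA per cell cannot be told apart in bulk tissue. Hairpin GC content also went with the ratio across detected genes, which are not independent (Spearman's rho 0.27, n = 389 genes from the same 2 libraries). The members' GC content was 54.5% in Mir138-1, 57.8% in Mir138-2, 48.0% in Mir129-1 and 53.3% in Mir129-2, around the median of 52.1%. After a linear correction for the GC content of the whole hairpin, the ratios were 0.50, 0.32, 0.78 and 0.60 in the same order. The part of GC content in the members' ratios was not tested.

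The detected genes nearest to each member in level were found by the Euclidean distance between log2 CPM values in the 2 libraries. Nearest to Mir138-1 were Mir338 (distance 0.32; 2050 and 4000 CPM), Mir671 (0.35; 2316 and 3240 CPM) and Mir30e (0.40). Mir138-2 had Mir187 (0.20; 1627 and 2740 CPM), Mir874 (0.27) and Mir485 (0.33) as neighbours. For Mir129-2 they were Mir34a (0.09; 622 and 1038 CPM), Mir667 (0.19) and Mir7689 (0.31), and for Mir129-1 they were Mir8112 (0.14; 69.0 and 107 CPM), Mir505 (0.22) and Mir299a (0.28). With 2 libraries, likeness of level says little beyond equal abundance. Members were left out as neighbours.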

How the data were processed

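The 2 deposited tables, 1 per library, hold raw counts of reads at each microRNA gene in columns for either strand, the gene's own strand and the other strand. The files have no header, so the meaning of the columns was read from the values. Per the deposited text notes, the authors used mm10 and GENCODE M21; the aligner, counter and trimming are not named in the sources used here. The 4 rows that name no gene (64.8% and 67.0% of reads) were left out of library sizes. Column 3 (own strand) was used, and all 2202 IDs were found in GENCODE M21.

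CPM used assigned reads as library size. Log2 ratios and exact binomial tests (SciPy 1.17.1) used TMM-scaled library sizes (edgeR 4.0.16, R 4.3.3) over detected genes (a minimum of 10 reads in each library), with Benjamini-Hochberg adjustment and a threshold of 0.05. Copy shares were compared by Fisher's exact test. Intervals and limits (3 reads for a count of 0) cover counting error only, since no molecular identifiers were counted. All 4 member hairpins matched in the RefSeq table and were identical to those of GENCODE M21. For likeness, the 3 genes nearest to each member were named, and of each list up to 4 genes, the most abundant and the lowest detected; the neuronal pairs and Mir26a and Mir16, the pairs furthest apart, were added, the last 2 after their values were seen. The members and lists were chosen with earlier results of these data known. Alternatives were other library sizes and size factors (DESeq2 1.42.0), the column that disregards strand, count minimums, a pseudocount, a GC correction, the edgeR exact test and single libraries.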

Additional observations from a re-analysis of the deposited data

Results flagged for a closer look

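Reads that fit several places lie outside every comparison above, since they carry no gene name. They numbered 4037293 in replicate 1 and 3264159 in replicate 2, or 1.18 and 1.16 for each assigned read of any gene. Set against the reads of the 4 genes alone, which are few, this is 243 and 154 for each. How many of the reads that fit several places came from the shared miR-138-5p and miR-129-5p arms was not tested.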

How the results depend on the processing

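The column that disregards strand moved Mir129-2 from 793 to 5.44 CPM and the share of Mir129-1 in its pair from 9.70% to 94.4%, and the log2 ratio of Mir129-2, then 0.62 on 13 and 18 reads, no longer passed. These follow from reads that count as ambiguous where 2 hairpins overlap. With all reads as the library size, the levels were 1119 (Mir138-1), 681 (Mir138-2), 28.9 (Mir129-1) and 268 CPM (Mir129-2), a change that follows from the larger denominator. Single libraries gave 2559 to 4053, 1628 to 2388, 62.8 to 108 and 596 to 990 CPM in the same gene order, and shares of 61.1% to 62.9% for Mir138-1 and 9.54% to 9.85% for Mir129-1.

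The count minimums, the pseudocount and the edgeR exact test could not change the direction of a log2 ratio. With these included, the log2 ratios of the 4 genes kept their direction under all 9 alternatives run for each. Across scalings (library totals, DESeq2 size factors and all reads) they ran from 0.51 to 0.66 for Mir138-1, 0.40 to 0.55 for Mir138-2, 0.63 to 0.78 for Mir129-1 and 0.58 to 0.73 for Mir129-2, and all passed. In the edgeR exact test the ratios of 0.56, 0.45, 0.68 and 0.63 did not pass (adjusted p = 1), and 2 genes in place of 263 were called; this test takes a larger error. The called difference in the Mir138 split and the uncalled one in the Mir129 split kept their side of the threshold in both alternatives run for each. For Mir138, neither alternative changed the counts, only the adjustment over pairs, so they could not test its call. No paired analysis was possible because there was 1 group. Depth limits Mir129-1 most, with 215 and 305 reads.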

Other observations

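Mir670 lies in the same noncoding gene as Mir129-2, Mir670hg, and was chosen after its values were seen. It received 35 and 16 reads, or 10.2 and 5.67 CPM, against 2038 and 2791 reads for Mir129-2. Its log2 ratio of replicate 2 over replicate 1 was -0.95 (exact binomial test, adjusted p = 0.051), and the difference from Mir129-2 was not tested.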
